A study of Mus musculus with 8 samples.

Results

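The 10 genes described here encode inflammatory cytokines and chemokines and the inhibitor that answers the pathway inducing them: the cytokine genes Il6, Il1b, Tnf and Csf1, the chemokine genes Ccl2, Ccl3, Ccl4, Cxcl1 and Cxcl2, and the inhibitor gene Nfkbia. They were looked up by symbol in a table of 23337 mouse genes, and all 10 were found. They were chosen by name with results of this same contrast in view, that is, with the normalised reads of tamoxifen libraries set against those without tamoxifen already known, so their differences between groups are given as a description, without a test of the members. The libraries were made from cells that a flow sorter had collected as endothelial from whole mouse embryos at stage E15.5. The tamoxifen group came from embryos whose mothers had been gavaged with the drug at E12.5, and the other group from embryos without tamoxifen. Both groups carry the label Cdh5-CreERT2(PAC);Rosa26fsTRAP, which names a Cre that needs tamoxifen and is driven by Cdh5, an endothelial cadherin gene, together with a Cre-dependent reporter, while the genotype field of every sample reads wild type. The effect of the drug and that of an active recombinase therefore cannot be told apart in these groups.

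Il1b and Tnf encode cytokines that start inflammation, and Il6 encodes a cytokine that carries the signal on to other tissues. Ccl2, Ccl3 and Ccl4 encode chemokines that draw monocytes, macrophages and lymphocytes, whereas Cxcl1 and Cxcl2 encode mouse chemokines that draw neutrophils. Csf1 encodes the growth factor on which macrophages depend, including those of the embryo. Many of these genes are switched on within a short time by the NF-kB family of transcription factors, and Nfkbia encodes IkB alpha, the protein that holds NF-kB in the cytoplasm and is itself made in response to it. Their messages are mostly short-lived, because AU-rich elements in the 3' untranslated region recruit decay factors.

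The NF-kB consensus, a motif of 10 bases searched for on both strands, lay in the proximal promoters of 5 of the 8 members that had a RefSeq promoter on GRCm38.p6 (250 bases before the start to 50 after it). These 5 promoters are shown because they hold the motif, and their genes run from Il6 to Cxcl2 in the size of the difference between the groups. Among all 32851 promoters of that length 8.46% hold the motif. Windows are read 5' to 3' on the strand of the gene and the capitals mark the match, which in Csf1 and Nfkbia reads as the consensus on the opposite strand. The Il6 window is chr5:30013052-30013097 (plus strand), the Csf1 window chr3:107760596-107760641 (minus), the Cxcl1 window chr5:90891156-90891202 (plus), the Cxcl2 window chr5:90903784-90903830 (plus) and the Nfkbia window chr12:55492649-55492694 (minus).
Il6: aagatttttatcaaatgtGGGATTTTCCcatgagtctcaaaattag
Csf1: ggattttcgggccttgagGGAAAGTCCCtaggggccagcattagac
Cxcl1: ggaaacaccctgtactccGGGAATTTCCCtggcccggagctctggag
Cxcl2: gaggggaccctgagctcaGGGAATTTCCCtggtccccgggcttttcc
Nfkbia: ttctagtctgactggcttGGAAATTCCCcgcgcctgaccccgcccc

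The match ended 35 bases before the start in Il6 and 20 bases before it in Nfkbia, and 145 bases before it in Csf1. In Cxcl1 and Cxcl2 the same run of letters matched on both strands with the matches overlapping, ending 61 and 87 bases before the start. The windows of Ccl3, Il1b and Tnf held no match, and Ccl2 and Ccl4 had no entry. The AP-1 motif TGANTCA was in 1 of the 8 promoters, that of Il6 farther upstream than the window printed above, and in 7.81% of all promoters. The heat shock pair GAANNTTC was in 0 of the 8 and in 7.86% of all promoters. Both strands were searched for each motif. A match describes letters in these windows and is neither a measured site nor a cause of any level given here.

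The messages also differ in their AU-rich stretches, given here for 5 members as 30-base windows of the 3' untranslated region from the GENCODE M21 annotation on GRCm38, with each ATTTA in capitals. They are shown because these windows run from dense to sparse, with 5 copies in Tnf and Cxcl2 and 2 in Il6 and Csf1. The windows of Ccl2, Ccl4 and Nfkbia, not shown, held 1 copy each. The order over the whole region differs, with Il6 at 14.1 copies per kb and Tnf at 10.5. The Tnf window is chr17:35199679-35199708 (minus), the Cxcl2 window chr5:90905327-90905356 (plus), the Cxcl1 window chr5:90892602-90892631 (plus), the Il6 window chr5:30019677-30019706 (plus) and the Csf1 window chr3:107741109-107741138 (minus).
Tnf: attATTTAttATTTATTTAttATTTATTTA
Cxcl2: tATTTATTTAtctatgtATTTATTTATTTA
Cxcl1: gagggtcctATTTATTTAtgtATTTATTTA
Il6: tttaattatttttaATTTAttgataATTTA
Csf1: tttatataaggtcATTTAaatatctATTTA

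ATTTA was found in the 3' untranslated regions of all 10 members and in 61.8% of the regions of 20589 genes. Its density was 15.0 copies per kb in Cxcl2, 14.1 in Il6, 12.2 in Ccl3, 11.8 in Cxcl1, 10.5 in Tnf and 8.71 in Il1b, and lower in Ccl4 with 6.62, Nfkbia with 3.91, Ccl2 with 3.64 and Csf1 with 1.89, against a median of 1.13 over all those genes. The longer motif TTATTTATT was found in Tnf with 5 copies, Cxcl2 with 4, Cxcl1 with 2 and Nfkbia with 1, and 6.94% of all genes had it. Csf1, with the longest of these regions at 2111 bases, had the fewest ATTTA per length of the 10.

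The names of 6 libraries could be placed without doubt in the deposited table, whose header has 9 fields against 10 in each row: table columns 7 to 9 are tamoxifen libraries and columns 3 to 5 are libraries without tamoxifen whether the names stand over the first or the last 8 value columns. Libraries are numbered in table order, as tamoxifen_1 to tamoxifen_3 and no_tamoxifen_1 to no_tamoxifen_3. Columns 6 and 10 change their group or lose their name with the placement and are given apart. The 6 compared libraries held 12212472 to 19908404 reads in genes, of which the ribosomal RNA precursor Rn45s took 29.4% to 38.7%. Values are the authors' normalised read counts per gene, called normalised reads here, and the 10 genes rest on 68 to 7153 reads per library. The sort held transcripts of other cells beside endothelial ones: Cdh5 stood at 1978 to 5201 normalised reads, beside 7464 to 12229 of Csf1r, which encodes the macrophage receptor for the Csf1 product, and 34557 to 59463 of Mpo, an enzyme of granulocyte granules. In such a mixture a change in the number of cells of a type and a change in RNA per cell cannot be told apart. Separate litters or embryos are not stated in the labels, so a p-value here covers only the spread among these libraries, and that spread may be technical. The mesenchymal marker sum set tamoxifen_1 and tamoxifen_2 apart, at 56326 and 87053 normalised reads, from 4487 in tamoxifen_3 and 2016 to 4328 in the libraries without tamoxifen.

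Levels were also put per kb of exon, counting the exons of all annotated transcripts of a gene. In Cxcl1 and Cxcl2 these exons cover the whole gene, at 1.875 and 2.068 kb. The values per kb of such genes may be too low, so the order given here is approximate. On this scale Nfkbia was the highest of the 10, with a mean of 2168 normalised reads per kb over the 6 libraries. Cxcl2 came next at 923, then Ccl3 at 577 and Ccl4 at 541. Ccl2 at 378, Il1b at 357 and Tnf at 311 formed the middle of the order, whereas Cxcl1 at 143, Csf1 at 131 and Il6 at 57.2 were the lowest. The ranges over libraries overlapped between each gene and its neighbour in this order except in 4 places. Nfkbia at 1657 to 3116 per kb did not reach down to Cxcl2 at 758 to 1070, nor Cxcl2 to Ccl3 at 401 to 749. Tnf at 229 to 492 per kb likewise did not reach down to Cxcl1 at 108 to 194, nor Csf1 at 95.5 to 173 to Il6 at 30.3 to 88.7. Cxcl1 and Cxcl2 lie near each other on chromosome 5, and their ranges per kb did not overlap.

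**Figure D1:**
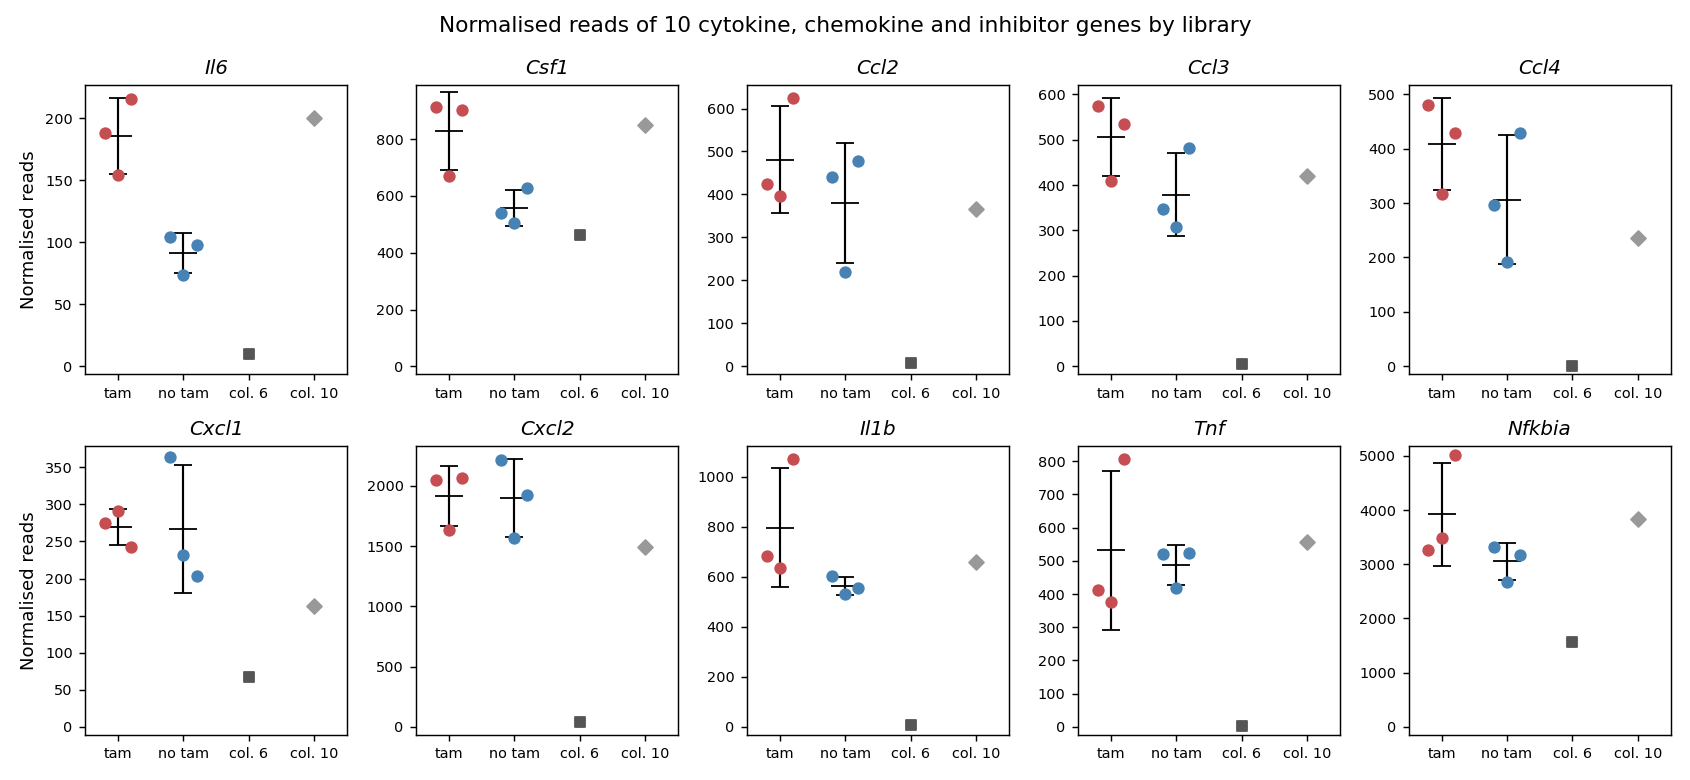
Normalised reads of each of the 10 genes (vertical axis, linear, own scale per gene) in the 3 tamoxifen libraries, the 3 libraries without tamoxifen, and table columns 6 and 10; each point is 1 library and the bars are group means with SD. Il6, Csf1 and Il1b show no overlap between the groups, and column 6 lies below all 6 libraries for every gene.

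Among the cytokine genes Il6 differed most between the groups. Il6 (chr5:30013114-30019981, plus strand, GRCm38) had 189, 154 and 215 normalised reads in tamoxifen_1, tamoxifen_2 and tamoxifen_3, against 104, 73.5 and 97.4 in no_tamoxifen_1, no_tamoxifen_2 and no_tamoxifen_3. All 3 tamoxifen libraries were higher than every library without tamoxifen. The group means were 186 ± 30.8 with tamoxifen and 91.7 ± 16.1 without (SD, n = 3 each), and the log2 fold change of values + 1, tamoxifen over no tamoxifen, was 1.01 ± 0.21 (SE). That is a fold of 2.02 with a 95% interval of 1.45 to 2.81, on 68 to 307 reads per library, and the log2 value lay between 0.86 and 1.14 with any 1 library left out.

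Csf1 (chr3:107741048-107760469, minus strand) had 914, 670 and 901 normalised reads in the tamoxifen libraries, against 541, 504 and 628 in the libraries without tamoxifen. The groups did not overlap, although tamoxifen_2 stood only slightly above no_tamoxifen_3. The means were 828 ± 137 with tamoxifen and 558 ± 63.3 without (SD, n = 3 each), and the log2 fold change was 0.56 ± 0.15 (SE), a fold of 1.48 with a 95% interval of 1.16 to 1.88. With any 1 library left out the log2 value lay between 0.48 and 0.71.

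Il1b (chr2:129364570-129371139, minus strand) had 685, 636 and 1072 normalised reads in the tamoxifen libraries, against 603, 530 and 556 in the libraries without tamoxifen. The groups did not overlap, but only tamoxifen_3 lay far above the rest. The means were 798 ± 239 with tamoxifen and 563 ± 36.8 without (SD, n = 3 each), with a log2 fold change of 0.46 ± 0.19 (SE) and a 95% interval of 0.02 to 0.90. Without tamoxifen_3 it was 0.23, and with tamoxifen_3 alone against the 3 others, a choice made after the data were seen, it was 0.93. Reads of Il1bos, an annotated gene that overlaps Il1b on the opposite strand, may be counted in either gene, since the sources used here do not give the use of strand in counting.

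Tnf (chr17:35199381-35202007, minus strand) had 413, 375 and 807 normalised reads in the tamoxifen libraries, against 521, 417 and 523 in the libraries without tamoxifen. Tamoxifen_1 and tamoxifen_2 were lower than every library without tamoxifen and tamoxifen_3 was higher than all of them, so the groups overlapped. The means were 532 ± 239 with tamoxifen and 487 ± 60.5 without (SD, n = 3 each). The log2 fold change was 0.05 ± 0.27 (SE), and it was -0.30 without tamoxifen_3, -0.06 without no_tamoxifen_2 and 0.74 with tamoxifen_3 alone. Il6, Il1b and Tnf thus all had their highest value in tamoxifen_3.

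The CC chemokine genes were higher on average in tamoxifen libraries, with overlap between the groups. Ccl2 (chr11:82035571-82037453, plus strand) had 424, 395 and 624 normalised reads with tamoxifen, against 442, 219 and 478 without. The overlap came with a wide spread in both groups, and no_tamoxifen_2 was far below the other 5 libraries. The means were 481 ± 125 with tamoxifen and 380 ± 140 without (SD, n = 3 each). The log2 fold change of Ccl2 was 0.39 ± 0.30 (SE), and it was 0.04 without no_tamoxifen_2 and 0.19 without tamoxifen_3. Ccl2 also overlaps Gm17268 on the opposite strand, with the same limit as for Il1b.

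Ccl3 (chr11:83647844-83649355, minus strand) had 574, 409 and 534 normalised reads with tamoxifen, against 347, 307 and 482 without. Only tamoxifen_2 lay within the range of the other group, and the means were 505 ± 86.2 with tamoxifen and 379 ± 91.6 without (SD, n = 3 each). Ccl4 (chr11:83662584-83664683, plus strand), the neighbour of Ccl3, had 481, 316 and 429 normalised reads with tamoxifen, against 296, 192 and 429 without. In both genes no_tamoxifen_2 was the lowest and no_tamoxifen_3 the highest library of its group, and tamoxifen_2 the lowest and tamoxifen_1 the highest of the other. The means of Ccl4 were 408 ± 83.9 with tamoxifen and 306 ± 119 without (SD, n = 3 each). The log2 fold changes were 0.43 ± 0.20 (SE) for Ccl3 and 0.47 ± 0.28 (SE) for Ccl4, with 95% intervals of -0.03 to 0.88 and -0.18 to 1.12. Leaving out 1 library at a time moved the value between 0.29 and 0.61 for Ccl3 and between 0.17, without no_tamoxifen_2, and 0.75, without no_tamoxifen_3, for Ccl4.

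The neutrophil-attracting CXC genes had nearly equal means in the groups. Cxcl1 (chr5:90891241-90893115, plus strand) had 275, 292 and 243 normalised reads with tamoxifen, against 364, 232 and 203 without. Its highest and its lowest library were both libraries without tamoxifen, and the means were 270 ± 24.9 with tamoxifen and 267 ± 85.9 without (SD, n = 3 each). Cxcl2 (chr5:90903871-90905938, plus strand) had 2053, 1631 and 2063 normalised reads with tamoxifen, against 2213, 1567 and 1927 without, again with the extremes in the group without tamoxifen. Its means were 1916 ± 246 with tamoxifen and 1902 ± 323 without (SD, n = 3 each). The log2 fold change was 0.06 ± 0.22 (SE) for Cxcl1 and 0.02 ± 0.15 (SE) for Cxcl2. The 95% interval of Cxcl2 ran from -0.33 to 0.37, so a change by as much as 1.29-fold upward is within the error of these libraries. Leaving out 1 library at a time gave -0.11 to 0.31 for Cxcl1 and -0.12 to 0.13 for Cxcl2, which spans both directions. Cxcl1 was at -0.11 without no_tamoxifen_3 and at 0.31 without no_tamoxifen_1, and Cxcl2 was at -0.12 without no_tamoxifen_2.

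Nfkbia (chr12:55489410-55492647, minus strand) had 3271, 3486 and 5017 normalised reads with tamoxifen, against 3327, 2667 and 3170 without. Tamoxifen_3 again stood highest, and tamoxifen_1 was lower than no_tamoxifen_1. The means were 3925 ± 952 with tamoxifen and 3055 ± 345 without (SD, n = 3 each). The log2 fold change was 0.34 ± 0.17 (SE), and 0.15 without tamoxifen_3.

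**Figure D2:**
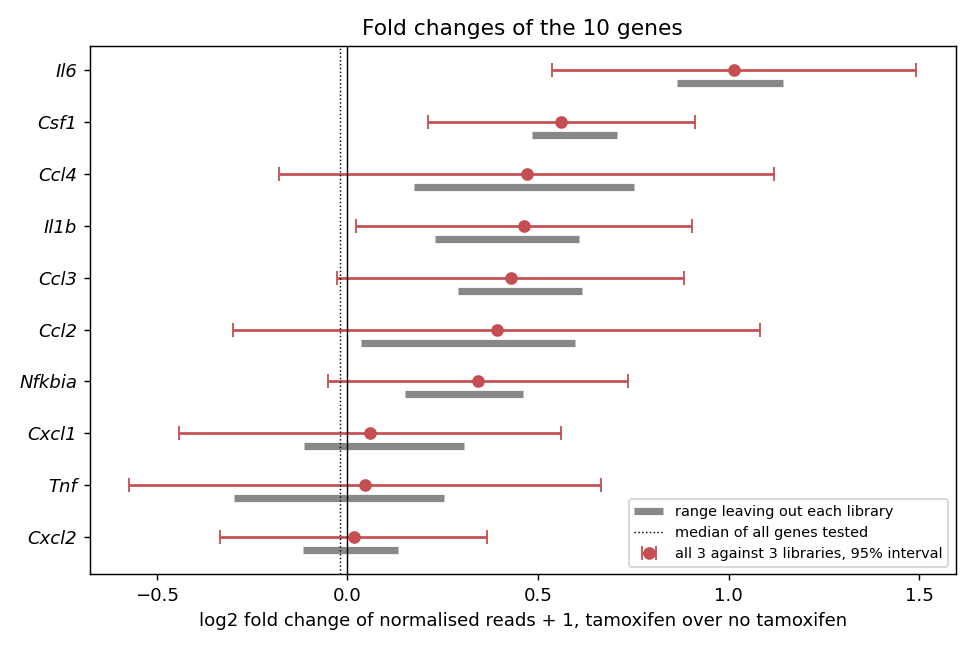
Log2 fold change of normalised reads + 1, tamoxifen over no tamoxifen, for the 10 genes (horizontal axis), with its 95% interval (red), the range with 1 library left out at a time (grey) and the median of all tested genes (dotted). Il6 at 1.01 and Csf1 at 0.56 stand highest. Cxcl1, Cxcl2 and Tnf cross 0 with 1 library left out, and Tnf moves to -0.30 without tamoxifen_3. The other genes stay above 0, Ccl2 only just, at 0.04 without no_tamoxifen_2.

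Across the 10 genes the log2 fold changes were all above 0, with a median of 0.41, beside a median of -0.02 over the 13480 genes tested, of which 46.5% were above 0. No direction is drawn from this, since the genes were chosen with this contrast in view. The adjusted p (limma, Benjamini-Hochberg, 0.05) was under the threshold for 0 of the 10, where 0.0445% of all tested genes were called, and the unadjusted p was under 0.05 for 3 of the 10, beside 9.01% of all genes, 4.89% higher and 4.12% lower with tamoxifen. edgeR called 0 of the 10 and 0.0371% of all genes. DESeq2 called 2 of the 10, Il6 and Csf1, and 2.04% of all genes. The DESeq2 calls higher with tamoxifen made 1.83% of all genes. The 3 genes without overlap between the groups, Il6, Csf1 and Il1b, stand beside 6.24% of all tested genes that were higher in all tamoxifen libraries without overlap, 7.62% that were lower and 13.9% in either direction. With 1 library left out at a time, limma called 1 of the 10, Il6 without tamoxifen_3 (log2 fold change 0.90), a setting in which 10.8% of all tested genes were called. Between 7 of the 10 genes, without no_tamoxifen_2, and all 10 were above 0. With tamoxifen_3 alone, that is, without the 2 libraries of high mesenchymal markers, the log2 fold changes were 1.24 for Il6, 0.70 for Csf1, 0.80 for Ccl2, 0.52 for Ccl3, 0.56 for Ccl4, -0.09 for Cxcl1, 0.13 for Cxcl2 and 0.72 for Nfkbia, and limma called 1 of the 10, Il1b, and 0.871% of all tested genes. That fit assumes that a single tamoxifen library varies like the other group. The library no_tamoxifen_2 was the lowest of the 6 for 8 of the 10 genes, and tamoxifen_3 the highest for 5.

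Macrophages are a known source of most of these products, and the sum of the 13 macrophage markers, all measured, was 37194, 35581 and 55954 normalised reads in the tamoxifen libraries, against 53782, 45960 and 49436 in the libraries without tamoxifen. The marker sum was thus highest in tamoxifen_3, the tamoxifen library with the highest Il6, Ccl2, Cxcl2, Il1b, Tnf and Nfkbia, and lower in tamoxifen_1 and tamoxifen_2 than in any other library. Per 1000 macrophage-marker reads, Il1b stood at 18.4, 17.9 and 19.2 with tamoxifen and at 11.2, 11.5 and 11.3 without. On this scale the 3 tamoxifen values of Il1b lay close together, unlike its normalised reads. Il6 stood at 5.07, 4.33 and 3.85 per 1000 marker reads with tamoxifen and at 1.94, 1.60 and 1.97 without, and Nfkbia at 88.0, 98.0 and 89.7 with tamoxifen and at 61.9, 58.0 and 64.1 without. Csf1 and Ccl2 were also without overlap on this scale, while Ccl3, Ccl4, Cxcl1, Cxcl2 and Tnf overlapped. In column 6, Csf1 stood at 582, Nfkbia at 1954, Cxcl1 at 84.2 and Il6 at 12.8 per 1000 marker reads, above every compared library. The Il6 value there rested on 5 reads. Ccl2 stood at 10.2 and Il1b at 7.65 in that column, on 4 and 3 reads. The part of other cells in these values was not tested. Over all tested genes 7.48% were higher without overlap on this scale, and this scale too comes from the contrast that was in view when the members were listed.

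Marker sums of the other cell types differed between libraries as well. The neutrophil and granule marker sum was 59183, 55854 and 71993 normalised reads in tamoxifen libraries, against 48560, 59078 and 85518 without tamoxifen. The sum over mast cell markers was 14266, 18395 and 27278 with tamoxifen, against 20832, 13560 and 14123 without. Endothelial markers summed to 20905, 21775 and 8748 with tamoxifen, against 21460, 18881 and 12963 without, so tamoxifen_3 was the lowest in endothelial and the highest in macrophage and mast cell markers. Lymphoid markers summed to 959, 672 and 394 normalised reads with tamoxifen, against 252, 375 and 430 without, and erythroid markers to 1141, 1453 and 264 with tamoxifen, against 282, 239 and 270 without. Both sums were highest in tamoxifen_1 and tamoxifen_2, the libraries with the most mesenchymal markers. Of the 6 lymphoid markers tested, all had a log2 fold change above 0, and limma and edgeR called 0 of them, with 4 by limma at p under 0.05 before adjustment, while DESeq2 called Cd3e and Cd79a. The part of these cells in the differences of Il6, Il1b, Tnf or Nfkbia was not tested.

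The receptors through which the members' products act were measured in the same libraries, and 0 of the 13 tested changed by limma, edgeR or DESeq2, with 1 higher and 1 lower by limma at p under 0.05 before adjustment. The median log2 fold change of the receptors was -0.22. Csf1r had 8124, 7464 and 12229 normalised reads with tamoxifen, against 11218, 9605 and 11809 without, so its mean was lower with tamoxifen where that of Csf1 was higher. Ccr1, a receptor for the Ccl3 product, had 420, 463 and 656 normalised reads with tamoxifen, against 744, 761 and 712 without, with a log2 fold change of -0.55 ± 0.17 (SE). Ccr2, the receptor for the Ccl2 product, had a log2 fold change of -0.42 ± 0.21 (SE). Il1r1, the signalling receptor for the Il1b product, had 178, 144 and 63.8 normalised reads with tamoxifen, against 72.0, 63.7 and 38.8 without. Its highest values were in the libraries with the most mesenchymal markers. The receptor genes for the Tnf product were Tnfrsf1a and Tnfrsf1b. Tnfrsf1a ranged over 1192 to 1610 and Tnfrsf1b over 1425 to 2263 normalised reads in the 6 libraries. Il6ra, the ligand-binding receptor for the Il6 product, ranged over 971 to 1454 and Il6st, its signalling partner, over 1018 to 1725. Cxcr2, the neutrophil receptor for the Cxcl1 and Cxcl2 products, ranged over 32.1 to 95.1 normalised reads, and Cxcr1 was at 0 in all 6 libraries.

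The other chemokine and cytokine genes were mixed in direction. Of 13 other chemokine genes tested, 6 had a log2 fold change above 0 and 7 below, with a median of -0.01, and 0 changed by limma or edgeR, with 1 higher and 2 lower by limma at p under 0.05 before adjustment, while DESeq2 called 1 lower, Ccl6. Ccl6, a chemokine gene of myeloid cells known from rodents, had 217, 253 and 270 normalised reads with tamoxifen, against 486, 457 and 354 without, a log2 fold change of -0.80 ± 0.16 (SE). Cxcl10, an interferon-induced chemokine gene, had 584, 357 and 386 with tamoxifen, against 256, 212 and 326 without, a log2 fold change of 0.73 ± 0.23 (SE). These groups did not overlap in either gene, in opposite directions.

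Of 12 other cytokine and growth factor genes tested, 7 had a log2 fold change above 0, with a median of 0.15, and 0 changed by limma or edgeR, with 3 higher and 1 lower by limma at p under 0.05 before adjustment, while DESeq2 called 2 higher, Lif and Tnfsf9. The 3 higher genes were Lif and Osm, relatives of Il6 whose products signal through the Il6st partner, and Tnfsf9, a member of the Tnf ligand family. Lif had 174, 190 and 89.1 normalised reads with tamoxifen, against 51.2, 36.7 and 41.1 without, and a log2 fold change of 1.73 ± 0.31 (SE). Without tamoxifen_3 limma called Lif and Tnfsf9 too, as it did 10.8% of all tested genes. Osm had 589, 733 and 558 with tamoxifen, against 484, 401 and 428 without. Tnfsf9 had 145, 160 and 177 normalised reads with tamoxifen, against 87.6, 49.7 and 78.4 without. Il1a, the sister gene of Il1b, had 217, 171 and 412 normalised reads with tamoxifen, against 415, 446 and 394 without, so that its mean was lower with tamoxifen, at a log2 fold change of -0.75 ± 0.29 (SE), where that of Il1b was higher.

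The genes of the NF-kB machinery itself showed 0 changed by limma, edgeR or DESeq2 among 17 subunit and kinase genes, with 0 by limma at p under 0.05 before adjustment, and the median log2 fold change was -0.09. Rel, the NF-kB subunit gene of lowest p, had 723, 646 and 1064 normalised reads with tamoxifen, against 1010, 1041 and 973 without. Among 18 genes for inhibitors and feedback targets of NF-kB, 0 changed by limma, edgeR or DESeq2, with 2 higher and 1 lower by limma at p under 0.05 before adjustment. The median log2 fold change of this list was -0.01, with 9 genes above 0 and 9 below. The 1 lower gene, Traf1, had 42.0, 41.8 and 94.0 normalised reads with tamoxifen, against 99.8, 99.4 and 95.9 without. Its log2 fold change was -0.83 ± 0.32 (SE). The 2 higher genes were Tnfaip3 and Nfkbid. Tnfaip3, which encodes the ubiquitin-editing inhibitor A20, had 5962, 6426 and 8793 normalised reads with tamoxifen, against 5379, 4524 and 5095 without, a log2 fold change of 0.48 ± 0.16 (SE). Nfkbid, which encodes another IkB protein, had 1058, 1251 and 1814 with tamoxifen, against 911, 675 and 1018 without, a log2 fold change of 0.65 ± 0.22 (SE). Nfkbia, Tnfaip3 and Nfkbid all had their highest value in tamoxifen_3 and their lowest in no_tamoxifen_2.

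The regulators of message decay and of cytokine maturation were measured too. Of 10 decay regulators 0 changed by limma, edgeR or DESeq2, with 1 higher and 1 lower by limma at p under 0.05 before adjustment. The higher gene was Zfp36l2, at a log2 fold change of 0.46 ± 0.15 (SE), and the lower was Hnrnpd, at -0.38 ± 0.15 (SE). The median of this list was -0.004, with 4 genes above 0 and 6 below. Zfp36, which encodes the protein that binds AU-rich elements such as those of Tnf, had 6341, 7431 and 8243 normalised reads with tamoxifen, against 6480, 4891 and 6730 without, a log2 fold change of 0.29 ± 0.16 (SE). The 12 maturation and inflammasome genes all had a log2 fold change below 0, with a median of -0.21, and 0 changed by limma, edgeR or DESeq2, with 1 lower by limma at p under 0.05 before adjustment. Nlrp3, the sensor gene whose complex leads to cleavage of the Il1b product, had 1685, 1458 and 3008 normalised reads with tamoxifen, against 2910, 2672 and 2590 without, again with tamoxifen_3 apart from the other tamoxifen libraries.

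Among 19 immediate early genes, which answer a stimulus without new protein synthesis, 1 rose by limma, with 8 higher and 0 lower at p under 0.05 before adjustment, 1 by edgeR and 7 by DESeq2, and the median log2 fold change was 0.34. The 1 gene was Nr4a1, an orphan nuclear receptor gene, with 7554, 8359 and 8050 normalised reads with tamoxifen and 3806, 2978 and 3646 without (log2 fold change 1.21 ± 0.12 SE, limma adjusted p = 0.0158). Of 10 inducible heat shock genes, which encode chaperones and their helpers, 5 rose by limma, Hspa1b, Hspa1a, Dnajb1, Hsph1 and Bag3, and edgeR called 4 and DESeq2 all 10, with a median log2 fold change of 2.54. Over all lists of the pathway, with the heat shock and immediate early lists counted in, limma called only these 6 genes. With 1 library left out it called between 2 and 39, the fewest without no_tamoxifen_2 or no_tamoxifen_3 and the most without tamoxifen_3. The heat shock list summed to 199799, 128606 and 120209 normalised reads with tamoxifen, against 30819, 37118 and 30872 without. In the columns given apart this sum was 14187 in column 6, below all compared libraries, and 151932 in column 10, within the tamoxifen range. The part of the heat shock and immediate early levels in those of Il6, Csf1 and the other members was not tested.

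**Figure D3:**
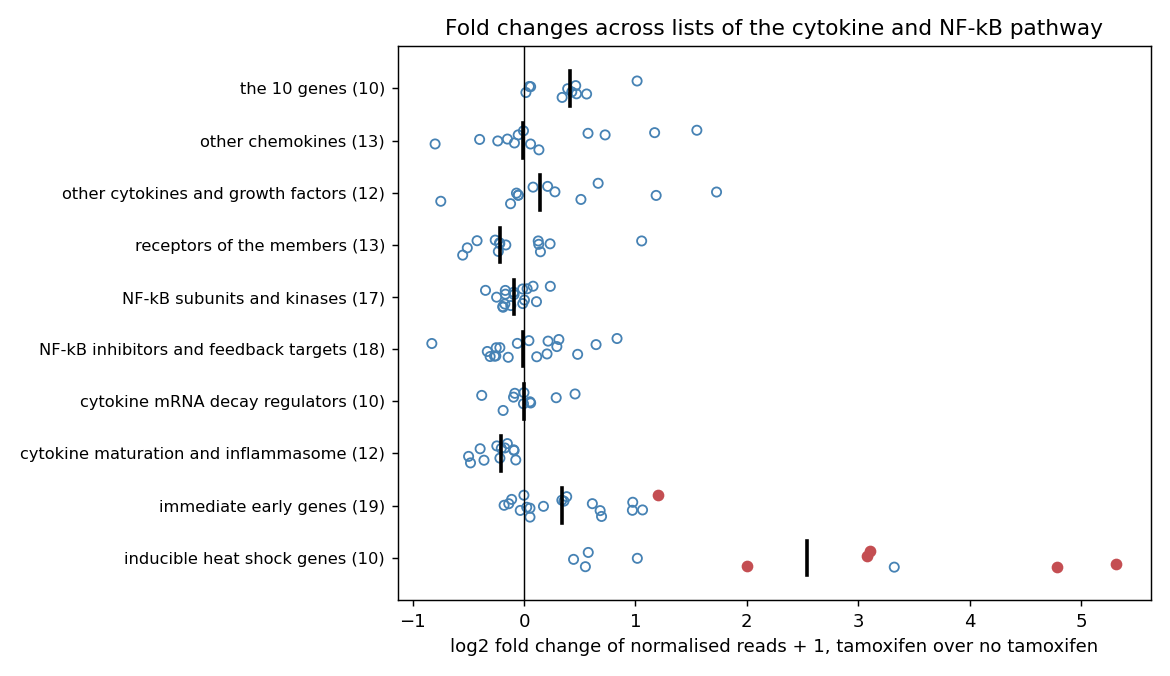
Log2 fold change of normalised reads + 1, tamoxifen over no tamoxifen (horizontal axis), for the tested genes of each list (rows, number of genes in brackets); points are genes, filled red where the limma adjusted p is under 0.05 and open otherwise, and the bar of each row is its median. The 10 members have a median of 0.41, the receptors -0.22, the inflammasome genes -0.21, the immediate early genes 0.34 and the heat shock genes 2.54.

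Column 6 of the table, which is a tamoxifen library or one without tamoxifen depending on where the names are placed, was lower than all 6 compared libraries for all 10 genes. The difference was of very unequal size between them. Il1b had 3 reads in column 6, or 0.897% of the 6-library mean in normalised reads, with a 95% interval of 0.185% to 2.62% (exact Poisson, counting error only). Tnf had 1 read or 0.400%, with an interval of 0.0101% to 2.23%, and Ccl3 had 2 reads or 0.921%, with an interval of 0.111% to 3.33%. Ccl2, with 4 reads, stood at 1.89% (0.515% to 4.84%) and Cxcl2, with 21, at 2.24% (1.39% to 3.42%), so these 5 genes could not be ordered at this depth. Ccl4 had 0 reads, so that its 6-library mean was at least 58.5-fold higher than the 3-read floor of that library. Il6, with 5 reads, stood at 7.33% of the mean (2.38% to 17.1%).

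The other members stayed well above that level. Cxcl1 kept 67.1 normalised reads or 25.0% of the 6-library mean, Nfkbia 1558 or 44.7%, and Csf1 464 or 66.9%. The macrophage marker sum in column 6 was 1.72% of its 6-library mean the neutrophil sum 1.15% and the mast cell sum 0.371%, which lie within the intervals of Il1b, Tnf and Ccl3, while the endothelial sum was 20.9%. Mesenchymal markers summed to 1722% and erythroid markers to 23340% of their means. The part of these cells in the low cytokine values of column 6 was not tested. Of the 10 members 7 were under 10% of their 6-library mean in column 6, beside 5.69% of all tested genes.

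**Figure D4:**
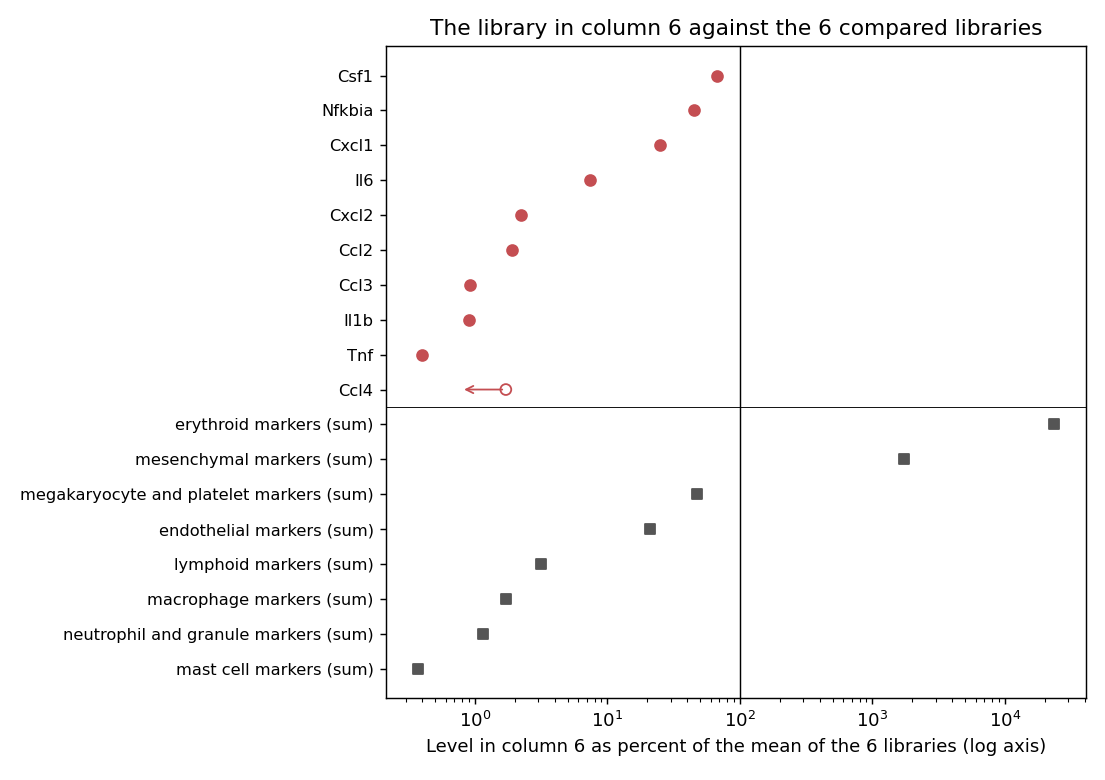
Level in table column 6 as a percentage of the mean of the 6 compared libraries (horizontal axis, log scale) for the members and for the summed cell type markers; the vertical line is at 100, and the open point with an arrow is the 3-read floor of Ccl4, which had 0 reads. Tnf at 0.400%, Il1b at 0.897% and Ccl3 at 0.921%, on 1 to 3 reads each, lie between the mast cell sum at 0.371% and the macrophage sum at 1.72%, while Csf1 at 66.9% and Nfkbia at 44.7% lie to the right of the endothelial sum at 20.9%.

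The differences changed widely once columns 6 and 10 were given groups. With the names over the last 8 value columns, column 6 is a library without tamoxifen and column 10 a tamoxifen library, and the log2 fold changes were 1.80 ± 0.68 for Il6, 1.98 ± 1.37 for Il1b, 1.92 ± 1.60 for Tnf and 2.33 ± 1.79 for Ccl4 (SE). With the names over the first 8, column 6 is a tamoxifen library, column 10 has no name and a further library without tamoxifen would stand in column 2, which was not used. The values then were 0.0018 ± 1.03 for Il6, -1.23 ± 1.69 for Il1b, -1.80 ± 1.85 for Tnf and -1.69 ± 2.16 for Ccl4 (SE). Csf1, the member that column 6 lowered least, was 0.64 ± 0.15 and 0.36 ± 0.26 (SE) in these placements, which include its value of 0.56 in the 6 libraries. With the names over the last 8 columns all 10 members were above 0, and with the names over the first 8 only Il6, Csf1 and Nfkbia were. limma called 0 of the 10 in either. Over all genes it called 4 of 14116 tested with the names over the last 8 and 0 of 14224 with those over the first 8. Column 10 itself was above every library without tamoxifen for 5 of the 10 genes and for 25.6% of all tested genes.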

How the data were processed

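RNA was sequenced from 8 labelled samples, 4 per group, as ribosomal-RNA-depleted libraries. The authors deposited 1 table of normalised read counts, a signal with 1 value per gene symbol and library. Per the submitters' processing notes, DESeq2, HTSeq 0.11.2 and STAR were used and hg38 and mm10 are named, with no roles. Dividing each column used by its smallest step gave whole reads for 100% of its values, within 0.001 reads, and these reads served for depth and count tests.

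Of the 9 value columns, 6 were compared, 3 libraries per group. Columns 6 and 10 were used only in alternatives for the placement of the names, and 1 column was not used. A mean of 10 or more normalised reads was required, which left 13480 genes, all 10 members among them. Differences were estimated with limma 3.58.1 (R 4.3.3) from log2(value + 1), with no covariate besides the group, and p-values were adjusted by Benjamini-Hochberg with a threshold of 0.05. That scale understates the change of low genes. The design had all 8 labelled samples in view, and the departure to 6 follows from the short header. The alternatives were edgeR 4.0.16 and DESeq2 1.42.0 on the recovered reads, other pseudocounts and filters, scaling without Rn45s, a replicate block, each library left out and the placements of the names. The scripts were tested on simulated data.

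The members and lists were chosen with earlier results of these data known. Of 214 list symbols 212 were found, 5 of them by older names. All members are named, and from each pathway list genes are taken from the 4 of lowest p and those past the threshold, with receptors given for the members where measured. 1 gene under this rule is not reported here. Sequences and motifs come from RefSeq promoters (GRCm38.p6, 8 of the 10 members matched) and GENCODE M21 transcripts (GRCm38).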

Additional observations from a re-analysis of the deposited data

Results flagged for a closer look

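Column 10 of the table has a tamoxifen name or no name, depending on where the header is placed, and entered no comparison between the 6 libraries. For 5 of the 10 genes its value was above every library without tamoxifen, beside 25.6% of all tested genes. Il6 stood at 200.3 normalised reads in column 10, within the range of the tamoxifen libraries, as did Csf1 at 849. Il1b at 661, Tnf at 557 and Nfkbia at 3834 were also within the range of the tamoxifen libraries. Ccl3 at 420 was within the ranges of both groups. Ccl2 at 367 and Ccl4 at 236 were lower than all 3 tamoxifen libraries and within the range of those without tamoxifen. The column 10 values of 162 for Cxcl1 and 1491 for Cxcl2 were lower than in all 3 libraries without tamoxifen. The mast cell marker sum of column 10, 36557 normalised reads, was above that of all 6 libraries, and its endothelial sum of 5716 was below them. The part of these cells in the cytokine levels of column 10 was not tested. Column 6 was above the libraries without tamoxifen for 0 of the 10 genes.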

How the results depend on the processing

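Of 170 recomputed log2 fold changes of the 10 genes, 151 moved by less than the spread between replicates and 19 by more, 16 of these under the 2 placements of the names and 3 with tamoxifen_3 alone. By limma, Il6 was called without tamoxifen_3 and Il1b with tamoxifen_3 alone, an alternative added after the data were seen (adjusted p = 0.0327). Over all genes limma called 6. DESeq2 called 275, names over the first 8 columns gave 0, tamoxifen_3 alone 115, and leaving out 1 library gave 2 (without no_tamoxifen_2 or no_tamoxifen_3; 3 without no_tamoxifen_1) to 1459 (without tamoxifen_3). Over the pathway lists limma called 6, DESeq2 20, names over the first 8 columns 0, tamoxifen_3 alone 11, and leaving out 1 library 2 to 39. With the replicate number as a block, 21 genes and 9 list genes were called, with 0 of the 10 members among them. The numbers were not taken as pairing the samples, since same-numbered libraries correlated at 0.20, 0.036 and 0.34 in their deviations from group means, and 3 of 6 libraries correlated best with their own number. The cause of these shifts was not tested. The count of 3 libraries per group and the unplaced names limit all values, and column 6, with 8695745 reads, limits its low counts.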
